A study of Homo sapiens with 6 samples.

Results

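DNA replication and E2F genes were examined in T24, a human bladder carcinoma cell line, after knockdown of KNSTRN, which encodes a protein of the mitotic spindle and kinetochore. The group comprised 57 genes of origin licensing, the replicative helicase, polymerases, the sliding clamp, the E2F transcription factors and chromatin assembly, chosen by symbol. All 57 were among the 20442 genes of the deposited count table, and all 57 passed the low-count filter, as did 12650 genes in all. The cells had attached for 24 h and then received a small interfering RNA for 24 h, directed at KNSTRN (si-KNSTRN, 3 libraries) or a control one (si-NC, 3 libraries). Growth medium and serum were the same for both groups, and the design text calls the libraries biological replicates of a single cell line.

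Replication starts from origins that are licensed in G1 phase. The origin recognition complex, CDC6 and CDT1 load the MCM2 to MCM7 helicase there, and geminin (GMNN) blocks CDT1 later in the cycle. In S phase, the CDC7 kinase with its activator DBF4, together with cyclin-dependent kinases, turns the loaded helicase into an active one by adding CDC45 and the GINS complex. Polymerase alpha with primase then starts each strand, the RFC complex loads the clamp PCNA, and polymerases delta and epsilon extend the strands. Many of these genes are transcribed by E2F factors, which the RB family of pocket proteins holds in check until G1 cyclins and their kinases release them. Tumour cells commonly show strong expression of this programme. In a bulk sample, fewer cells in S phase and less RNA per cell cannot be told apart.

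Libraries held 17870543 to 19717513 counted reads in the si-KNSTRN group and 16386799 to 20596074 in the si-NC group. KNSTRN (chromosome 15, 40382721 to 40394288, GRCh38) was at 13.6, 13.6 and 12.2 CPM (counts scaled to the same library total, the usual CPM unit, with edgeR's TMM factors) in si-KNSTRN libraries 1 to 3, against 38.3, 41.2 and 41.9 CPM in si-NC libraries 1 to 3, or 32.5% of the control level. Summed levels of marker lists were scaled by library total alone, without the TMM factors. Of 13 bladder epithelium genes, 8 passed the filter. The summed level of the 13 was 3132 to 3374 CPM in si-KNSTRN libraries and 2846 to 2976 CPM in si-NC libraries. KRT8, KRT18 and KRT7 were abundant, KRT8 at 1081 CPM in si-KNSTRN cells and 1080 CPM in si-NC cells. KRT7 (0.23 on the log2 scale) and PPARG (0.64) were called higher and UPK1A (-2.20, at 0.175 CPM in si-KNSTRN cells and 0.832 CPM in si-NC cells) lower. KRT19, EPCAM and GATA3 averaged under 2 CPM in both groups, and CDH1, KRT5 and UPK3A had no read in any library. The summed level of the mesenchymal list (VIM, CDH2 and FN1) was 17491 to 18426 CPM in si-KNSTRN libraries and 21564 to 23504 CPM in si-NC libraries, and all 3 genes were called lower. The part of this difference in the results that follow was not tested. The summed level of the leukocyte list (PTPRC, CD3E and CD14) was at most 1.43 CPM in si-KNSTRN libraries and at most 1.12 CPM in si-NC libraries. Pairs of libraries of the same group differed beyond sampling noise, with a chi-square per degree of freedom of 2.6 to 10.3 in si-KNSTRN and 2.16 to 4.35 in si-NC, the largest between si-KNSTRN libraries 1 and 3.

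Among the 57 genes, 41 (71.9%) were called different between si-KNSTRN and si-NC cells, beside 62.5% of all genes tested, where a call is an adjusted p under 0.05 in edgeR's quasi-likelihood test with adjustment over every gene tested. Of these, 26 were lower and 15 higher in si-KNSTRN cells, and 16 genes were not called. The lower genes made up 45.6% of the group, beside 31.3% of all genes tested, and the higher ones 26.3%, beside 31.2%. The counts by role given below are to be read against the same shares of all genes. Of the 9178 tested genes with an average level of at least 10 CPM, 31.0% were lower and 36.0% higher. The median log2 fold change (si-KNSTRN over si-NC) was -0.12 in the group and -0.01 over all genes tested. The changes were small, and 4 of the 57 genes (7.02%) were called with a difference of at least 1.5-fold. That share was 19.2% of all genes tested and 13.6% of those averaging at least 10 CPM. The levels of the 3 si-KNSTRN libraries and the 3 si-NC libraries did not overlap for 44 of the 57 genes, or 77.2%. This held for 67.3% of all genes and 71.4% of those averaging at least 10 CPM. With upper-quartile scaling, 29 were lower and 8 higher, and of all 12650 genes 4450 were lower and 3489 higher. The count of higher genes was also 9 without si-NC library 1 and 9 without si-NC library 2. Over all genes, these 2 fits called 3624 and 3656 higher, against 3946 in the main fit. In the test against a fold of 1.2, which called 31.9% of all genes, 11 of the 57 were lower and 3 higher.

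**Figure D1:**
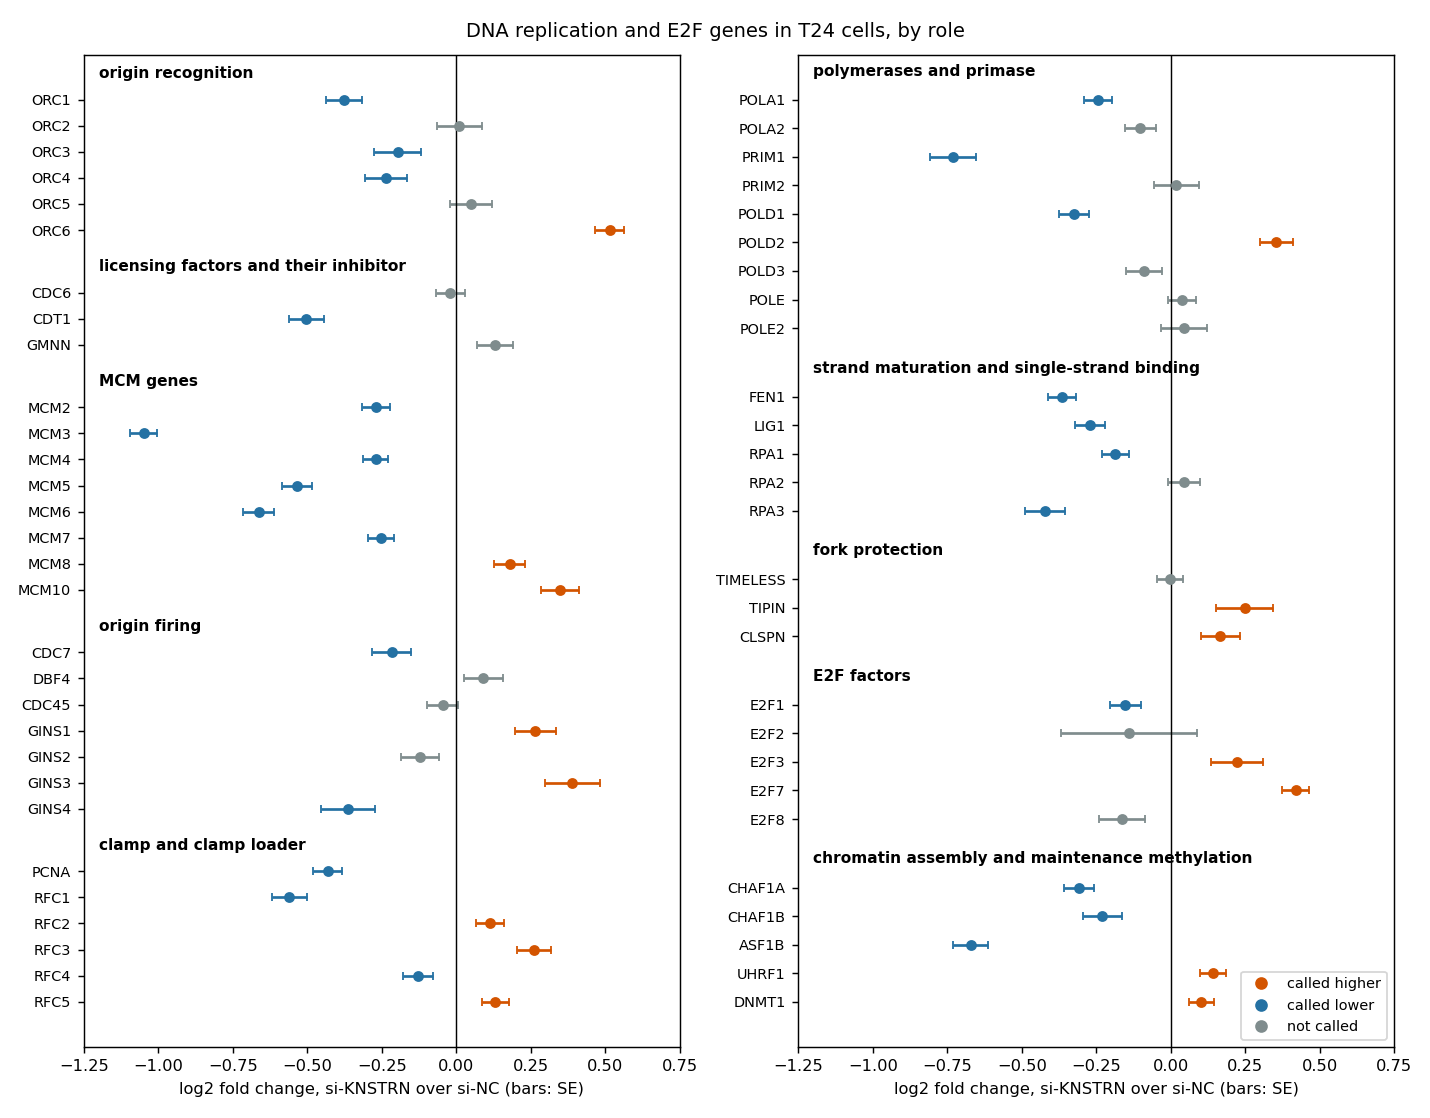
Log2 fold change of each of the 57 genes (si-KNSTRN over si-NC, 3 libraries each) with its standard error as a bar, grouped by role and coloured by call at an adjusted p under 0.05. All of MCM2 to MCM7 lie left of 0, with MCM3 farthest at -1.05, while ORC6 lies farthest right at 0.51.

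**Figure D2:**
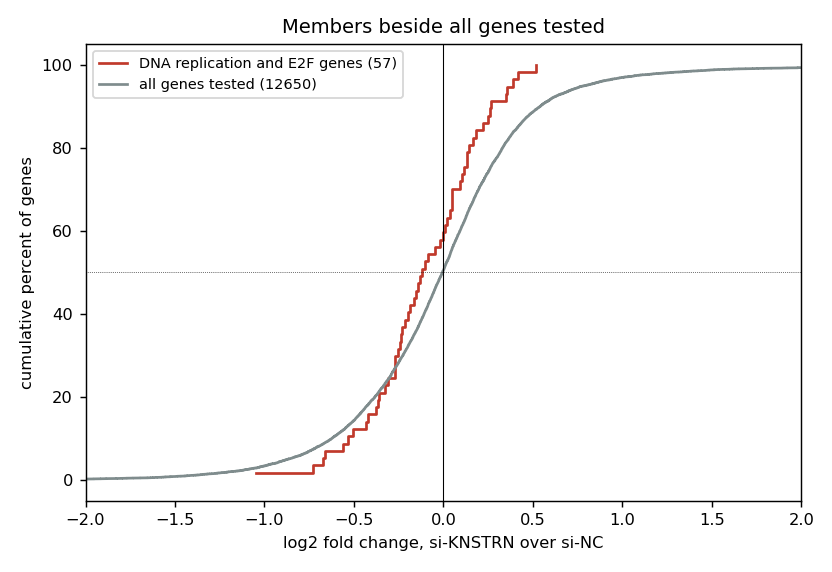
Cumulative percent of genes (vertical axis) by log2 fold change of si-KNSTRN over si-NC (horizontal axis, cropped at -2 and 2) for the 57 DNA replication and E2F genes and for all 12650 genes tested. The group's curve reaches 50% at -0.12 and spans -1.05 to 0.51, within the wider spread of all genes.

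The promoters of the genes were searched for short words bound by E2F factors. Many of the genes are known E2F targets, so the share with such a word is no independent feature of the group. RefSeq promoters (250 bases before to 50 after the start listed for the gene, GRCh38.p14) were found for 50 of the 57 genes. For UHRF1 the listed start lies inside the annotated gene (chromosome 19, 4903080 to 4962154, plus strand) and not at its first base. Missing from that table were MCM5, POLD3, RPA2, RPA3, E2F8, MCM4 and GINS4. At least one of the words TTTCCCGC, TTTGGCGC, TTTCGCGC and TTTGCCGC, on either strand, occurred in 24 of the 50 promoters (48%), beside 5.47% of 10272 promoters of tested genes and 3.33% of all 27305 promoters. TTTCCCGC was found in 12 of the 50, TTTGGCGC in 9, TTTCGCGC in 6 and TTTGCCGC in 1. TTTGGCGC read on one strand and TTTCGCGC read on the other can overlap, as both do in TTTGGCGCGAAA. The word CCAAT, bound by the factor NF-Y, occurred in 30 of the 50 promoters (60%), beside 36.6% of promoters of tested genes. A match describes letters in this window and does not show binding.

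The stretches below show the words in genes that fell (MCM3, MCM6, MCM7, CDT1, PCNA and E2F1), in genes that rose (E2F3, RFC3 and UHRF1) and in a gene that was not called (POLE). Each is written 5′ to 3′ on the strand of the gene, from RefSeq in build GRCh38.p14, with the E2F words in capitals.
MCM3 (chr6:52284889-52284936, minus strand): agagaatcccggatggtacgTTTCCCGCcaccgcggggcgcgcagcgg
MCM6 (chr2:135876502-135876615, minus strand): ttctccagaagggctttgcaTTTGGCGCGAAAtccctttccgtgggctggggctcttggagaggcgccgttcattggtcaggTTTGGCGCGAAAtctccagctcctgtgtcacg
MCM7 (chr7:100101557-100101604, minus strand): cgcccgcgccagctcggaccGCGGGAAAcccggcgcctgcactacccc
CDT1 (chr16:88803734-88803781, plus strand): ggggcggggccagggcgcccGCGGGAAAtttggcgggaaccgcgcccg
PCNA (chr20:5126654-5126701, minus strand): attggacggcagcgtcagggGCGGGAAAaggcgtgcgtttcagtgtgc
E2F1 (chr20:33686386-33686438, minus strand): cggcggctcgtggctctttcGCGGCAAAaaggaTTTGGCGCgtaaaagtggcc
E2F3 (chr6:20401806-20401853, plus strand): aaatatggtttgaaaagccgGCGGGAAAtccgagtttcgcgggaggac
RFC3 (chr13:33818074-33818121, plus strand): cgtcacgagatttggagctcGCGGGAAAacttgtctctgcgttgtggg
UHRF1 (chr19:4909467-4909500, plus strand): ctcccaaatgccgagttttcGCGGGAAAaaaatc
POLE (chr12:132687343-132687380, minus strand): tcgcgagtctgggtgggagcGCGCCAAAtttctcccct
MCM6 carries the 12-base combination of overlapping words at 2 places in this stretch. Genes with such a word went both ways, with 10 lower, 8 higher and 6 not called of 24 (median log2 fold change -0.11). Of the 26 genes whose promoter held none of the words, 12 were lower, 7 higher and 7 not called (median -0.02).

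Every subunit gene of the core helicase fell. MCM2 to MCM7 encode the 6 related ATPases of the ring that unwinds DNA, and all 6 were called lower, with log2 fold changes from -1.05 to -0.25 and a median of -0.40. The fall was largest for MCM3 (chromosome 6, 52264015 to 52284742), at 83.1, 81.2 and 78.5 CPM in si-KNSTRN libraries 1 to 3, against 165, 168 and 170 CPM in si-NC libraries 1 to 3. The groups lay far apart, and the si-KNSTRN level was 48.3% of the si-NC level (log2 fold change -1.05, SE 0.05, adjusted p = 1.18e-11). MCM6 (chromosome 2, 135839626 to 135876443) was at 91.4, 87.9 and 80.1 CPM in si-KNSTRN libraries, against 134, 134 and 142 CPM in si-NC libraries (log2 fold change -0.66, SE 0.05, adjusted p = 1.83e-08). MCM5 (chromosome 22, 35400140 to 35455031) was at 140, 139 and 148 CPM in si-KNSTRN libraries and at 209, 215 and 194 CPM in si-NC libraries (log2 fold change -0.53, SE 0.05, adjusted p = 1.04e-07). In both genes the lowest si-NC library lay above the highest si-KNSTRN library. MCM2, MCM4 and MCM7 fell less, with log2 fold changes of -0.27, -0.27 and -0.25. MCM7 overlaps AP4M1 and MCM2 overlaps TPRA1 in the annotation, and the counting strand is not given in the sources used here.

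Because the subunits act in a ring of one copy each, their reads were also compared within each library, where no scaling between libraries enters. MCM3 held 7.78%, 7.72% and 7.26% of the reads of MCM2 to MCM7 in si-KNSTRN libraries 1 to 3, against 11.6%, 11.8% and 12.1% in si-NC libraries. MCM7 held 31.4%, 30.5% and 31.8% in si-KNSTRN libraries and 28.1%, 28.2% and 27.6% in si-NC libraries. The shares of MCM3, MCM5 and MCM6 were lower and those of MCM2, MCM4 and MCM7 higher in all 3 si-KNSTRN libraries than in any si-NC library. For MCM5 the gap was narrow, with 13.702% in si-KNSTRN library 3 and 13.719% in si-NC library 3. The shares are parts of the same total, so lower shares of some genes raise those of the others. For each share the exact two-sided permutation test gave p = 0.1, the smallest that 3 libraries against 3 allow. Per kilobase of transcript, MCM7 had the highest level of the 6 in both groups, at 113 ± 3.88 CPM per kb in si-KNSTRN cells and 134 ± 2.01 CPM per kb in si-NC cells (SD, n = 3), followed by MCM4. MCM6 had the lowest level, at 23.1 CPM per kb in si-KNSTRN cells and 36.7 CPM per kb in si-NC cells. MCM3 was the next above MCM6 in both groups, at 25.2 ± 0.726 CPM per kb in si-KNSTRN cells and 52.2 ± 0.815 CPM per kb in si-NC cells. MCM2 averaged 46.1 ± 2.32 CPM per kb in si-KNSTRN cells and 55.6 ± 0.684 CPM per kb in si-NC cells, close to MCM3 in the si-NC cells only.

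**Figure D3:**
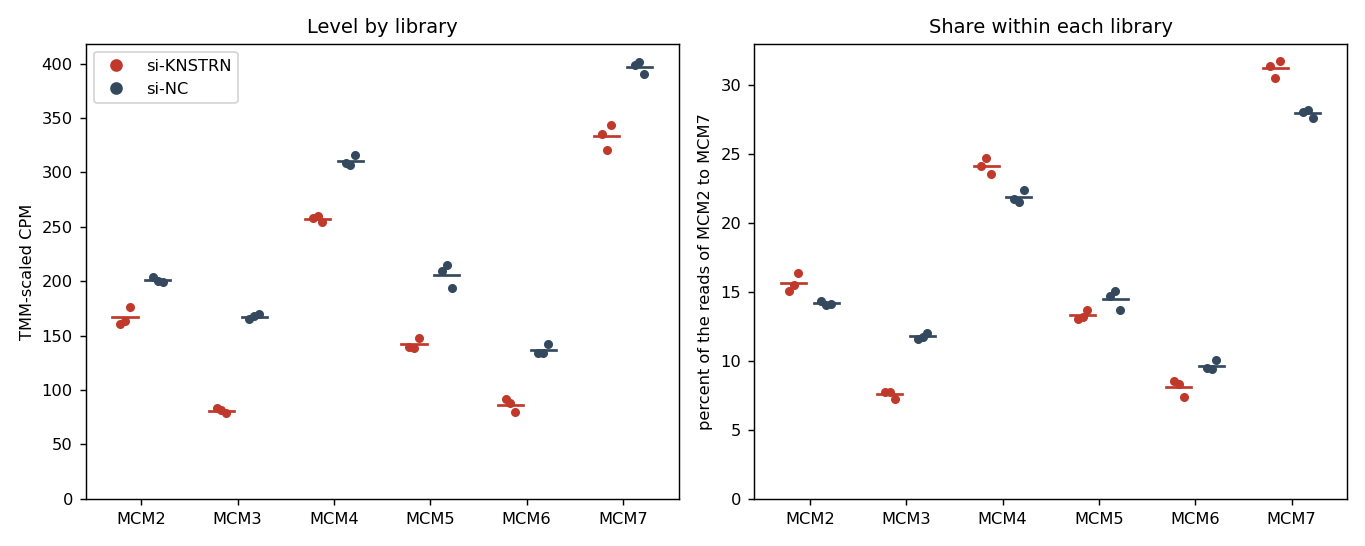
Left, TMM-scaled CPM of MCM2 to MCM7 in each library, with the group mean as a line; right, each gene's percent of the reads of these 6 genes within the same library. All 6 levels are lower in the si-KNSTRN libraries, and the share of MCM3 averages 7.59% there against 11.8% in si-NC libraries.

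Among relatives outside the ring, MCM8 and MCM10 rose and MCM9, which is not one of the 57 genes, fell. MCM8, which acts with MCM9 in homologous recombination, was at 90.1 to 95.9 CPM in si-KNSTRN libraries and 79.1 to 87.8 CPM in si-NC libraries (0.18 on the log2 scale, SE 0.05, adjusted p = 0.00635). MCM10, a factor needed to activate the helicase, was at 31.1 to 33.5 CPM in si-KNSTRN libraries and 24.4 to 26.3 CPM in si-NC libraries (log2 fold change 0.35, SE 0.06, adjusted p = 1.92e-04). Neither pair of ranges overlapped. MCM9 was at 4.77 to 5.82 CPM in si-KNSTRN libraries and 6.43 to 6.90 CPM in si-NC libraries, also without overlap (log2 fold change -0.33, adjusted p = 0.0216).

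Subunits of the origin recognition complex diverged, with 3 of 6 lower, 1 higher and 2 not called. ORC6 (chromosome 16, 46689659 to 46698394), the smallest subunit, rose most of all 57 genes. It was at 67.8, 66.9 and 67.6 CPM in si-KNSTRN libraries, against 48.2, 46.7 and 46.6 CPM in si-NC libraries (log2 fold change 0.51, SE 0.05, adjusted p = 9.44e-08). ORC1, the ATPase subunit that is degraded after licensing, fell to 32.3 to 32.6 CPM in si-KNSTRN libraries, against 39.9 to 43.9 CPM in si-NC libraries (log2 fold change -0.38). The ratio of ORC6 to ORC1 reads was 2.05 to 2.10 in si-KNSTRN libraries and 1.06 to 1.17 in si-NC libraries. ORC3 and ORC4 were called lower at -0.20 and -0.24. ORC3 lost its call without si-KNSTRN library 3 and without si-NC library 1 or 3, ORC4 without si-KNSTRN library 2. ORC2 and ORC5 had values of 0.01 and 0.05 and were not called.

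Among the licensing factors, CDT1 (chromosome 16, 88803789 to 88809258), which brings the helicase to the origin, fell. It was at 42.1, 43.6 and 41.4 CPM in si-KNSTRN libraries, against 62.4, 62.3 and 55.3 CPM in si-NC libraries (log2 fold change -0.50, SE 0.06, adjusted p = 1.38e-06). All si-KNSTRN values lay below all si-NC values. Its loading partner CDC6, an ATPase, was at 82.3 to 84.9 CPM in si-KNSTRN libraries and 81.2 to 88.5 CPM in si-NC libraries and was not called (log2 fold change -0.02, SE 0.05). GMNN, the inhibitor of CDT1, was not called either, at 0.13 (SE 0.06, adjusted p = 0.0651). Within libraries, the ratio of CDT1 to GMNN reads averaged 1.06 ± 0.0457 in si-KNSTRN and 1.64 ± 0.131 in si-NC (SD, n = 3).

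Genes of origin firing were split, with 2 of 7 higher, 2 lower and 3 not called. The 4 GINS subunits, which form one complex, did not move together. GINS3 (chromosome 16, 58392471 to 58406147) rose, with 291, 295 and 320 reads in si-KNSTRN libraries and 263, 209 and 198 reads in si-NC libraries. After scaling it averaged 16.1 ± 1.28 CPM in si-KNSTRN cells and 12.3 ± 1.21 CPM in si-NC cells without overlap (log2 fold change 0.39, SE 0.09, adjusted p = 0.00169). GINS1 rose by 0.27 and GINS4 fell by 0.36 on the log2 scale, and GINS2 was at -0.12 without a call. The kinase gene CDC7 was called lower at -0.22, a call lost without si-KNSTRN library 2, while its activator DBF4 (0.09) and the helicase cofactor CDC45 (-0.05) were not called.

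The clamp fell and its loader was divided. PCNA, the ring that tethers polymerases to DNA, was at 202, 189 and 180 CPM in si-KNSTRN libraries, against 259, 253 and 258 CPM in si-NC libraries (log2 fold change -0.43, SE 0.05, adjusted p = 8.84e-07). RFC1 (chromosome 4, 39287456 to 39366362), the large subunit of the clamp loader, was at 98.0, 91.9 and 88.9 CPM in si-KNSTRN libraries and at 134, 128 and 150 CPM in si-NC libraries (log2 fold change -0.56, SE 0.06, adjusted p = 3.93e-07). Both genes had no overlap between groups. The small subunit gene RFC3 rose by 0.26 on the log2 scale (SE 0.06). RFC2 and RFC5 were called higher at 0.11 and 0.13 and RFC4 lower at -0.13. The calls of these 3 genes were lost when libraries were left out, RFC2 in 5 of 6 such fits and RFC4 and RFC5 in 4 of 6 each. With other scalings, filters and models added, 14 fits in all, RFC2 lost its call in 11, RFC4 in 7 and RFC5 in 6. The ratio of RFC1 to RFC3 reads was 1.83 to 2.02 in si-KNSTRN libraries and 3.28 to 3.59 in si-NC libraries.

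Polymerase genes had 3 of 9 lower, 1 higher and 5 not called. The catalytic primase gene PRIM1 (chromosome 12, 56731580 to 56752323) was at 27.9, 25.4 and 22.1 CPM in si-KNSTRN libraries and at 40.0, 41.9 and 43.4 CPM in si-NC libraries (log2 fold change -0.73, SE 0.08, adjusted p = 4.81e-07). The groups were separate, but the gene overlaps NACA and HSD17B6 in the annotation and shares 23.3% of its 50-base windows with another annotated gene, so its level is uncertain. PRIM2, the other primase subunit, was at 0.02 and not called, with 31.3% of its windows shared. Within polymerase delta, the catalytic subunit gene POLD1 fell by 0.33 on the log2 scale, at 75.5 to 79.3 CPM in si-KNSTRN libraries and 91.5 to 100 CPM in si-NC libraries. Its accessory subunit gene POLD2 rose by 0.35 on the log2 scale (SE 0.05), at 209, 213 and 239 CPM in si-KNSTRN libraries and 166, 181 and 169 CPM in si-NC libraries. The catalytic subunit gene of polymerase alpha, POLA1, fell by 0.24. POLA2, POLD3, and both epsilon genes POLE and POLE2 were not called, with values from -0.10 to 0.05. POLA2 shares 54.1% of its windows and POLD1 11.1% with other annotated genes, so these levels are uncertain too.

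Genes that finish the strands were lower in 4 of 5 cases. FEN1 (chromosome 11, 61792911 to 61797238), the flap endonuclease that trims Okazaki fragments, was at 118, 112 and 112 CPM in si-KNSTRN libraries, against 152, 146 and 142 CPM in si-NC libraries (log2 fold change -0.36, SE 0.05, adjusted p = 4.03e-06). FEN1 overlaps TMEM258 and FADS2 in the annotation, RPA1 overlaps SMYD4 and RPA3 overlaps UMAD1. LIG1, the ligase that joins the fragments, fell by 0.27. Of the single-strand binding complex, RPA1 and RPA3 fell by 0.19 and 0.42 and RPA2 was at 0.05 without a call. Of the 3 fork protection genes, 2 were called higher, with small values. TIPIN (chromosome 15, 66336191 to 66386717) was at 12.3, 12.9 and 10.7 CPM in si-KNSTRN libraries and 9.90, 9.95 and 10.3 CPM in si-NC libraries (log2 fold change 0.25, SE 0.10, adjusted p = 0.0317). CLSPN, the checkpoint mediator claspin, was called higher at 0.17. Both calls were lost in 4 of 6 fits with a library left out, and TIMELESS, the partner of TIPIN, was at -0.0031 (SE 0.04) and not called.

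The E2F genes changed little and in both directions, with 2 of 5 higher, 1 lower and 2 not called. E2F7 (chromosome 12, 77021251 to 77065569), an atypical E2F that represses E2F targets, rose. It was at 129, 126 and 129 CPM in si-KNSTRN libraries, against 94.8, 92.6 and 99.8 CPM in si-NC libraries (log2 fold change 0.42, SE 0.05, adjusted p = 7.21e-07). The other atypical repressor gene, E2F8, was at 16.6 to 17.5 CPM in si-KNSTRN libraries and 17.7 to 20.2 CPM in si-NC libraries and was not called (-0.16, adjusted p = 0.0703). E2F1, the best known activator, was at 53.6, 53.5 and 51.3 CPM in si-KNSTRN libraries and 61.5, 58.7 and 55.8 CPM in si-NC libraries. Its log2 fold change of -0.15 (SE 0.05, adjusted p = 0.0186) lost the call without si-KNSTRN library 3 and without si-NC library 1 or 2. The activator E2F3 was called higher at 0.22 (adjusted p = 0.0368), a call lost without si-KNSTRN library 1 or 2 and without si-NC library 1 or 2. E2F2 had 21 to 28 reads in si-KNSTRN libraries and 24 to 29 reads in si-NC libraries, too few to show a change of this size (SE 0.23).

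Within libraries, E2F7 had 2.41, 2.36 and 2.51 reads per E2F1 read in si-KNSTRN and 1.54, 1.58 and 1.79 in si-NC. Per kilobase of transcript, E2F7 averaged 22.3 ± 0.254 and E2F1 21.1 ± 0.521 CPM per kb in si-KNSTRN cells, against 16.7 ± 0.650 for E2F7 and 23.4 ± 1.15 for E2F1 in si-NC cells (SD, n = 3). E2F8, E2F3 and E2F2 followed in that order in both groups, at 4.84, 2.70 and 0.258 CPM per kb in si-KNSTRN cells and at 5.43, 2.32 and 0.284 CPM per kb in si-NC cells. In total 9 such ratios of reads were computed, on pairs picked after the levels had been seen. None overlapped between groups, and each had an exact two-sided permutation p of 0.1, also after adjustment over the 9. Because the pairs were picked on these same levels, the separation and the p-values describe them and are no test.

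Of 5 genes of chromatin assembly and maintenance methylation, 3 were lower and 2 higher. ASF1B (chromosome 19, 14119512 to 14136589), a histone H3 and H4 chaperone gene linked to proliferation, was at 36.3, 37.6 and 34.5 CPM in si-KNSTRN libraries, against 58.6, 59.4 and 54.4 CPM in si-NC libraries (log2 fold change -0.67, SE 0.06, adjusted p = 5.48e-08). The groups were well separated. Its paralogue ASF1A, outside the 57 genes, rose, at 15.1 to 17.1 CPM in si-KNSTRN libraries and 11.3 to 13.2 CPM in si-NC libraries (log2 fold change 0.39, adjusted p = 8.95e-04). SSRP1 and SUPT16H, which encode the histone chaperone FACT and are likewise outside the 57, were not called at 0.05 each. The subunit genes of chromatin assembly factor 1, CHAF1A and CHAF1B, fell by 0.31 and 0.23. UHRF1, which recognises hemimethylated DNA, and DNMT1, the maintenance methyltransferase that it recruits, were called higher at 0.14 and 0.10. UHRF1 lost its call with upper-quartile scaling, DNMT1 in all 6 fits with a library left out, and UHRF1 shares 33.7% of its windows with another annotated gene.

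Genes of the same pathways outside the group were set beside it. Of all genes tested, 31.3% were lower and 31.2% higher, and the counts in these short lists are descriptive. Among 27 other replisome and origin genes, 10 were lower (37%) and 8 higher (29.6%), near the shares of all genes (median -0.05). The smallest p-values were those of TOPBP1 (-0.49), the topoisomerase gene TOP1 (0.47) and RBBP4 (-0.46), the remaining subunit gene of chromatin assembly factor 1. Of 13 genes of E2F partners, pocket proteins and the DREAM complex, 3 were lower and 3 higher. TFDP1, the dimer partner of E2F proteins, was at 195 ± 5.90 CPM in si-KNSTRN cells and 130.5 ± 3.56 CPM in si-NC cells (SD, n = 3; log2 fold change 0.58), and E2F4 and the pocket protein gene RBL2 were at 0.30 and -0.27. RB1 itself was at 0.08 and not called. Of 6 nucleotide supply genes, which E2F also drives, 4 were lower and 1 higher, with log2 fold changes of -1.27 for TYMS, which overlaps ENOSF1, -0.72 for TK1 and -0.44 for RRM1.

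Larger changes were found among G1/S cyclins, their kinases and inhibitors. Of 14 genes tested, 5 were higher (35.7%) and 4 lower (28.6%), near the 31.2% and 31.3% of all genes tested. The cyclin-dependent kinase inhibitor gene CDKN1A (p21) was at 62.6, 73.8 and 84.1 CPM in si-KNSTRN libraries and at 15.3, 12.9 and 14.6 CPM in si-NC libraries (log2 fold change 2.36). CDKN2C, an inhibitor of CDK4 and CDK6, went the other way, at 13.3, 12.9 and 11.4 CPM in si-KNSTRN libraries and at 36.3, 35.0 and 36.2 CPM in si-NC libraries (log2 fold change -1.52). The cyclin gene CCND1 had a log2 fold change of 0.83. CCNE1, an E2F target chosen after its value was seen, was at 22.6, 25.5 and 29.8 CPM in si-KNSTRN libraries, against 12.8, 12.9 and 11.6 CPM in si-NC libraries (log2 fold change 1.06, SE 0.10). It rose while the E2F targets MCM3 and TYMS, the largest falls of their lists, fell in the same libraries. The part of E2F activity in these levels was not tested. Of 7 genes of G2 and M phase, 4 were lower and 2 higher, with the smallest p-values for TOP2A (-0.84), CCNB1 (0.34) and PLK1 (0.29), while the proliferation marker MKI67, added after its value was seen, averaged 461 ± 3.67 CPM in si-KNSTRN cells and 461 ± 28.8 CPM in si-NC cells (SD, n = 3). The part of p21 or of cell cycle phase in the levels of the replication genes was not tested.

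**Figure D4:**
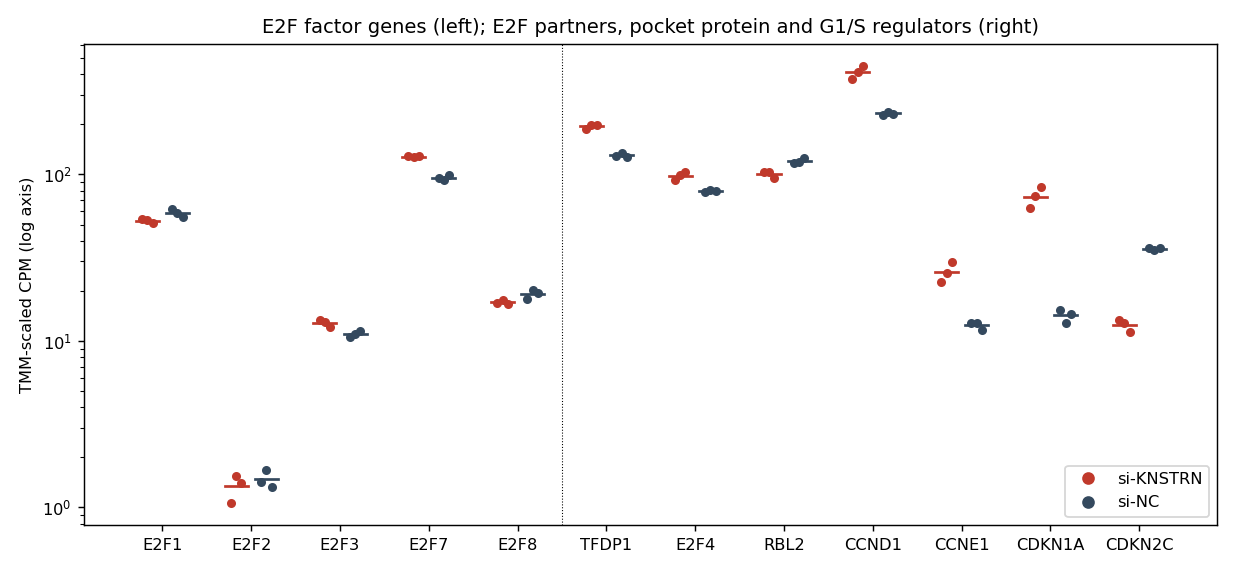
TMM-scaled CPM (log axis) of 5 E2F genes and of 7 genes of E2F partners, a pocket protein and G1/S regulators in each library, with si-KNSTRN left of si-NC and the group mean as a line. E2F7 rises and E2F1 differs little, while CDKN1A, CCNE1 and CCND1 are higher and CDKN2C lower in all 3 si-KNSTRN libraries.

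The 3′ untranslated regions (UTRs) of 1 GENCODE transcript per gene were searched for TGAGTA, a word picked from earlier results of these data. It occurred in 11 of the 57 genes (19.3%), beside 27.3% of 11951 tested genes with a UTR of at least 50 bases. Sites of 8 of these genes are shown as examples, 5 in genes called lower, 1 in a gene called higher and 2 in genes not called. The capitals mark TGAGTA with a C before it or an A after it where present.
MCM3: atgacttCTGAGTActtttggg
MCM6: aatacccaTGAGTActcaactt
ASF1B: tgcaccctTGAGTAccattgat
ORC3: ctaaattgTGAGTAAatcattc
CHAF1B: ctgcctctTGAGTAgctaggat
E2F7: acttgccCTGAGTAAatctgtg
DBF4: tttggtgCTGAGTAAttagatt
POLD3: tagcaagCTGAGTAAaggttga
MCM3, ASF1B and MCM6 have 1 site each and fell by 1.05, 0.67 and 0.66 on the log2 scale, whereas PRIM1, second in the size of its fall at -0.73, has none. ORC3 and CHAF1B hold a site and were lower at -0.20 and -0.23. E2F7 holds the 8-base form CTGAGTAA and rose by 0.42, and DBF4 and POLD3, both with the 8-base form, were not called. MCM8, DBF4 and POLD3 hold the word at more than 1 place, and MCM8 was called higher at 0.18. The remaining genes with the word, ORC2 and POLA2, were not called. Of the 11 genes with the word, 5 were lower, 2 higher and 4 not called, with a median of -0.10. The 46 genes without it had 21 lower, 13 higher and 12 not called, with a median of -0.13.

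**Figure D5:**
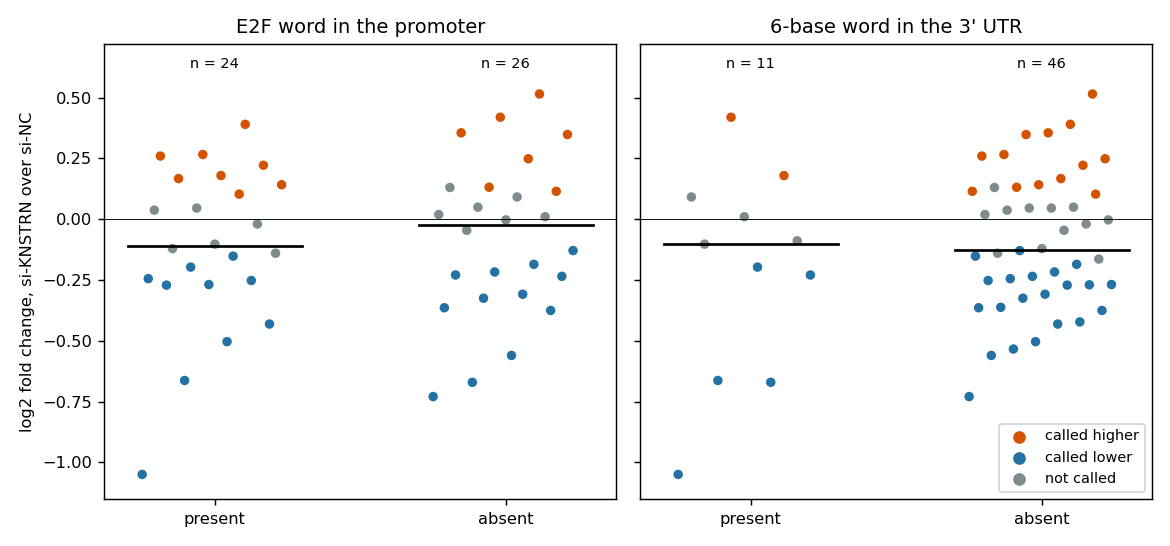
Log2 fold change of each gene (si-KNSTRN over si-NC; points coloured by call, median as a line) by presence of an E2F word in the promoter (left, 50 genes with a promoter in the table) and of TGAGTA in the 3′ UTR (right, 57 genes). Called higher and called lower genes stand in every column, and the medians run from -0.13 to -0.02.

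The direction of 29 of the 41 calls, 21 lower and 8 higher, held with a call in all 14 alternative fits. These fits do not include the stricter thresholds or the test against a fold of 1.2, which called 11 lower and 3 higher of the 57. The share of all genes that kept a call in every fit was not computed. The 8 higher genes were ORC6, MCM8, MCM10, GINS1, GINS3, RFC3, POLD2 and E2F7. The 12 calls lost in at least one fit were those of ORC3, ORC4, CDC7, RFC4 and E2F1 among lower genes and RFC2, RFC5, TIPIN, CLSPN, E2F3, UHRF1 and DNMT1 among higher ones. The 16 genes not called had log2 fold changes between -0.16 and 0.13. At least 10% of windows were shared with another gene in 7 of the 57 genes, and 14 overlapped another listed gene, among them ORC4, DBF4, GINS2, RFC4, RFC5, CHAF1A, CHAF1B and DNMT1. Read counts of the group ran from 160 to 8090 per library apart from E2F2.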

How the data were processed

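RNA sequencing libraries of T24 cells were made from total RNA with a SMARTER mRNA kit, per the labels' protocols. The authors deposited a table of raw counts, with 1 whole number for each gene and library. Per the submitters' processing notes, the tools were HISAT2 2.0.1, featureCounts, fastp 0.20.0 and FastQC 0.11.5, with build GRCh38. The strand setting, the annotation release and the handling of multiply aligned reads are unknown (not given in the sources used here). Groups and replicate numbers came from the sample titles.

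The counts of 12650 genes that passed filterByExpr (minimum count 10) were scaled by TMM and tested with edgeR 4.0.16 in R 4.3.3 by the two-sided quasi-likelihood test with group as its only term. Calls required a Benjamini-Hochberg adjusted p under 0.05, computed across the whole table of tested genes. Every gene of the group was accounted for. Values per library are given for KNSTRN, for called genes with an absolute log2 fold change of at least 0.5, and for the gene with the smallest p in each role. Of each pathway list, the 3 genes with the smallest p are named. Library values or ranges of other genes, such as PCNA, MCM10, ORC1, POLD2 and E2F1, and the mentions of MCM9, ASF1A, SSRP1, SUPT16H, RB1, CCNE1, MKI67 and single marker genes were added beyond this rule after their values were seen. Genes and lists were chosen with earlier results of these data known. No source names molecular identifiers, so a count of 0, which allows up to 3 reads or 0.146 to 0.183 CPM, limits counting error only.

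Lengths, overlaps, 3′ UTRs and shared 50-base windows came from GENCODE 29 (GRCh38), with 1 transcript per gene, and gene coordinates and promoters from RefSeq (GRCh38.p14). A simulation of the si-KNSTRN and si-NC libraries (12570 genes tested) altered 50 genes at each size. The same test found 60% of those at 1.25-fold, 88% at 1.5-fold, 94% at 2-fold and 98% at 4-fold, and made 16 false calls. Genes were drawn independently there. Alternatives were median-of-ratios, upper-quartile and library-size scaling, DESeq2 1.42.0, limma-voom (limma 3.58.1), other low-count filters, a replicate block, each library left out, stricter thresholds and, added after the data had been seen, members without shared or overlapping sequence.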

Additional observations from a re-analysis of the deposited data

How the results depend on the processing

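The main counts for the 57 genes were 26 lower and 15 higher, and 3959 lower and 3946 higher over all genes tested. Upper-quartile factors gave 8 higher of the 57 and 3489 of all genes. An adjusted p under 0.01 gave 8 higher of the 57 and 3284 of all genes, and a limit of 1.5-fold left 4 lower and 0 higher of the 57 and 1362 lower and 1062 higher of all genes. The test against a fold of 1.2 called 11 lower and 3 higher of the 57 and 2087 lower and 1952 higher of all genes. The 39 genes with under 10% of windows shared and no annotated overlap had 15 lower and 12 higher, a set with fewer genes. The count of lower genes dropped more than that of higher ones. Of all genes tested, 31.3% were lower and 31.2% higher, so the surplus of lower genes rests in part on genes with shared or overlapping sequence. Leaving out each library gave 9 to 13 higher and 23 to 25 lower of the 57, and 3624 to 3842 higher and 3597 to 3859 lower of all genes. The median shift of all genes was between -0.04 and 0.04 under other scalings.

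Among the 57 genes, only 6 without a call changed sign in any of the 14 alternative fits. With upper-quartile factors ORC2 was at -0.0327, PRIM2 at -0.0239 and POLE at -0.0064. With library size alone CDC6 was at 0.0164 and TIMELESS at 0.0338, and TIMELESS was at 0.001 with median-of-ratios factors and with DESeq2. Over the fits that left out 1 library, ORC2 ran from -0.057 to 0.0681, CDC6 from -0.0506 to 0.0132, PRIM2 from -0.0532 to 0.0621, TIMELESS from -0.0287 to 0.0114 and E2F2 from -0.257 to 0.0068. The cause was not tested.

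The replicate block gave 24 lower and 12 higher of the 57 and 3857 lower and 3831 higher overall. Same-numbered libraries showed no shared deviation (correlations of -0.063, 0.053 and -0.034). The highest correlation was that of si-KNSTRN library 1 with si-NC library 3 (0.098). Values this small cannot show whether the libraries were prepared as pairs. Depth limited E2F2, with 21 to 29 reads.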
